A study of Mus musculus with 11 samples.

Results

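The endocannabinoid genes examined here were the cannabinoid receptor Cnr1, its interacting protein Cnrip1, and 7 enzymes that make or break down endocannabinoids, namely Dagla, Daglb, Napepld, Mgll, Abhd6, Abhd12 and Faah. They were taken by symbol from the table of expression values, where all 9 of 9 were present among 14974 genes, and all 9 passed the filter on low values that left 14936 genes. RNA was sequenced from the anterior cingulate cortex (ACC) of adult WT C57BL/6 mice (C57BL/6J in the study's methods), with 1 mouse per library. The Trained group held 6 mice (3 female, 3 male) that had been trained to press a lever for food, under food restriction. The Untrained group held 5 mice (3 female, 2 male) that were also food-restricted and placed in the same chambers but received the rewards without pressing. In both groups the ACC was dissected within 1 h of the last session. Each library is called by its group and its label number: Trained 1, 2 and 3 (female) and 12, 13 and 14 (male), and Untrained 5, 6 and 17 (female) and 10 and 16 (male). 1 more untrained male, which the authors took out because of few reads, is not analysed here.

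Endocannabinoids are lipid messengers that travel backwards across the synapse. In the cortex, 2-arachidonoylglycerol (2-AG) is cut from diacylglycerol by the lipases encoded by Dagla and Daglb, and that of Dagla supplies most synaptic 2-AG. Released from the postsynaptic cell, 2-AG binds the Gi/o-coupled receptor CB1, encoded by Cnr1, on axon terminals, where it reduces transmitter release. CB1 is particularly abundant on terminals of cholecystokinin (CCK) interneurons and is also present on glutamatergic terminals. 2-AG is hydrolysed by Mgll, Abhd6 and Abhd12, and anandamide, which can be made by Napepld from N-acylphosphatidylethanolamine, is hydrolysed by Faah. Values are FPKM, the fragments of a gene scaled to its length and to the fragments of the library. Bulk tissue was measured, so fewer cells of a type and less RNA per cell cannot be told apart.

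None of the 9 genes differed between Trained and Untrained mice at an adjusted p under 0.05 in limma with Benjamini-Hochberg adjustment over all 14936 genes, and neither did any other gene (percent called 0; the lowest adjusted p was 0.334). The exact permutation test gave adjusted p-values of 0.431 and above. Daglb was higher and Napepld was lower in Trained mice without overlap between the groups, and Cnr1 had a lower mean with overlapping groups. In the other 6 genes the fitted difference ran between -5.82% (Abhd6) and 4.76% (Faah). At an unadjusted p under 0.05 the members held 1 gene higher and 1 lower, against 4.13% of all genes higher and 4.2% lower. None of the 9 genes met the thresholds of the study (unadjusted p under 0.01 and at least 1.5-fold), which 0.147% of all genes met in the higher and 0.134% in the lower direction. Non-overlapping groups were found for 0.375% of all genes in the higher direction and for 0.388% in the lower direction. The median log2 difference of the 9 genes was -0.00595, beside -0.00288 over all genes tested. For all 9 genes the 95% confidence interval of the difference lay inside 1.5-fold in both directions.

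The upstream windows of the 3 genes with the largest differences are printed here, since these are the genes the comparison turns on. Each holds the 250 bases before the transcription start in RefSeq (GRCm38.p6), written 5′ to 3′ on the strand of the gene. Where RefSeq had several starts for a gene, the one farthest upstream was used. All 3 windows end upstream of the GENCODE gene start (143464584 for Daglb, 21701396 for Napepld and 33924593 for Cnr1). Sequence nearer those starts was not searched. In the RefSeq table of 32851 promoters, 7 of the 9 genes were matched (Dagla and Abhd12 were not). Capitals mark matches, on either strand, to 9 motifs that were searched: the cAMP response element TGACGTCA and its half-site TGACG, the AP-1 site TGANTCA, the EGR site GCGTGGGCG, the nuclear receptor site AAAGGTCA, the YY1 site AAGATGGC, the E-box CACGTG, the CCAAT box and the GC box GGGCGG. The half-site also lies within the full cAMP response element. The Daglb window is chr5:143464243-143464492 (+), the Napepld window chr5:21701623-21701872 (-) and the Cnr1 window chr4:33924014-33924263 (+).
Daglb: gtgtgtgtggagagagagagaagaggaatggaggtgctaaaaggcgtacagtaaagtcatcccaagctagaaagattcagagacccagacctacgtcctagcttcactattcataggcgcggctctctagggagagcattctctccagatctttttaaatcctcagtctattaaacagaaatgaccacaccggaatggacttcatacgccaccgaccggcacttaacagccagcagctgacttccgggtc
Napepld: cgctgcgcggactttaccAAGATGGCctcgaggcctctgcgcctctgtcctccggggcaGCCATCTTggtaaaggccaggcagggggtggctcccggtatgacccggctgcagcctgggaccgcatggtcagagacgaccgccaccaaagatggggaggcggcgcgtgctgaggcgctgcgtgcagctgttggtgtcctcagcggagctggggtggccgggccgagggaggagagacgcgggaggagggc
Cnr1: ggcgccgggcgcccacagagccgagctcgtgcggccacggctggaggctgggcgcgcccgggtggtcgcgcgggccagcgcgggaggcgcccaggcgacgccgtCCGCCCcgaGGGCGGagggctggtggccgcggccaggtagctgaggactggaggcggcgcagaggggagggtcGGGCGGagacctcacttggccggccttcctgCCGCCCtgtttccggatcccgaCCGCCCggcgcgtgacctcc

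The 3 windows differed in composition. The Daglb window had a GC content of 49.2%, near the median of 52.4% over all promoters, and held none of the 9 motifs in these letters. The Napepld window had a GC content of 69.6% and held the YY1 letters at 2 places. Their first bases were at -232 on the strand of the gene and at -191 on the opposite strand, counted from the RefSeq start used. The YY1 letters were added to the search after the sequence had been seen. They occurred in 1.565% of all promoters and more than once in 10 promoters (0.03044%). The Cnr1 window had a GC content of 79.2% and held 5 GC boxes, letters that 32.74% of promoters contain. Letters of the cAMP response element, the AP-1 site or the EGR site, which occur in 1.546, 6.749 and 0.5358% of promoters, were in none of these 3 windows. A match of letters describes a sequence and does not show that a factor binds it.

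**Figure D1:**
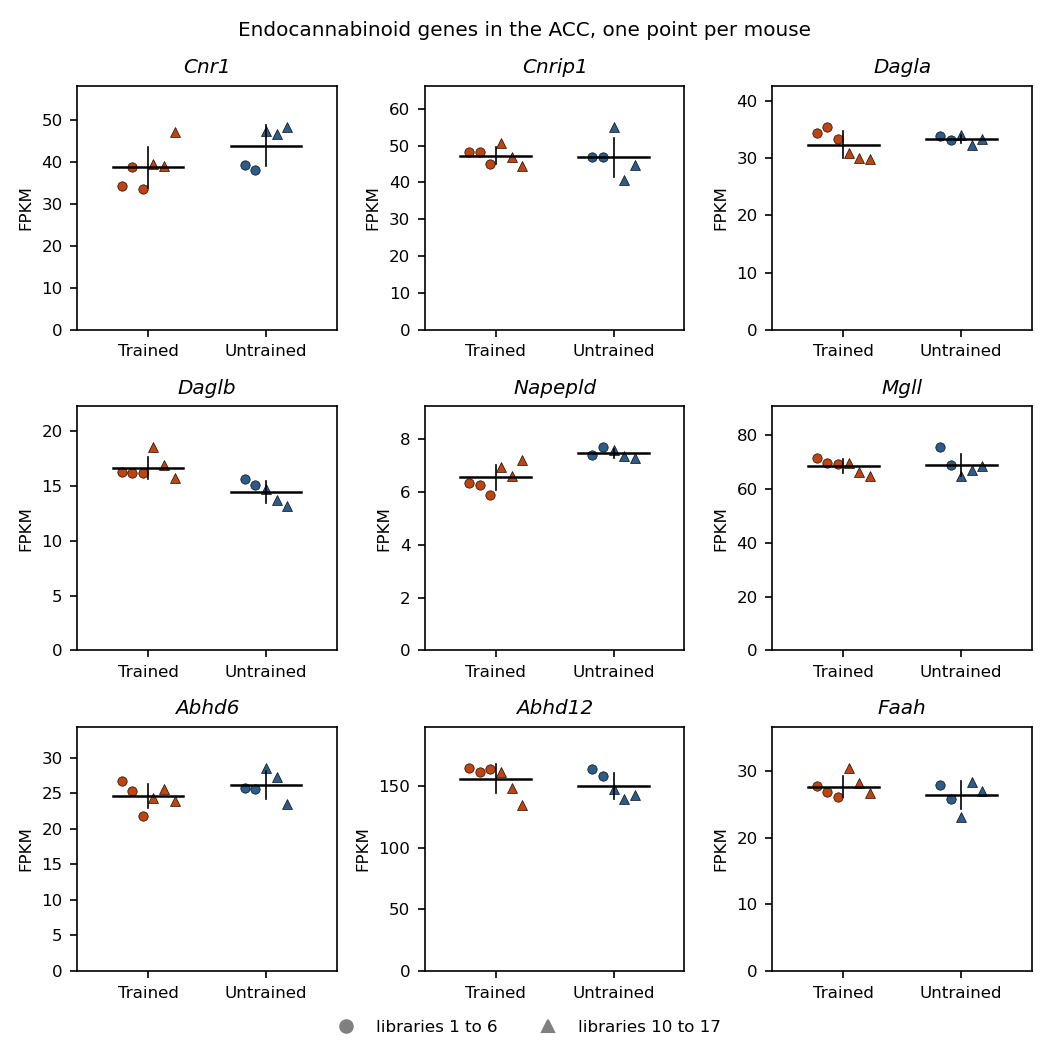
FPKM of the 9 endocannabinoid genes (vertical axis, from 0) in Trained (left, orange) and Untrained (right, blue) mice. Each point is 1 mouse, circles are libraries 1 to 6 and triangles libraries 10 to 17, and the lines give the mean and SD; in Daglb the lowest Trained library (15.7) was just above the highest Untrained one (15.6), and in Napepld the highest Trained library (7.22) was just below the lowest Untrained one (7.27).

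Cnr1 encodes the receptor CB1 (chr4, 33924593 to 33948831 in GENCODE M21 on GRCm38). It measured 33.7 (lowest), 39.0 (median) and 47.3 FPKM (highest) in Trained mice, against 39.2, 38.1, 47.4, 46.7 and 48.5 FPKM in Untrained 5, 6, 10, 16 and 17. The groups overlapped: Trained 14 was near the high Untrained libraries, and Trained 1 and 3 were below all Untrained ones. The means were 38.8 ± 4.88 FPKM in Trained (SD, n = 6) and 44.0 ± 4.93 FPKM in Untrained mice (SD, n = 5). The log2 difference was -0.18 (SE 0.0919, 95% interval -0.38 to 0.02; limma p = 0.0693, adjusted p = 0.611; two-sided exact permutation p = 0.123). With 1 library left out it ran from -0.14 (without Trained 3 or Untrained 17) to -0.24 (without Trained 14; limma adjusted p = 0.208), and without Untrained 16 and 17 together it was -0.10. The estimated depth behind Cnr1 was 4454 to 6773 fragments per library.

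Cnr1 also varied with the library numbers, which fall into a range of 1 to 6 and a range of 10 to 17. Libraries 1 to 6 were 3 Trained and 2 Untrained females. Libraries 10 to 17 were the 5 males and Untrained 17, a female, and the labels do not say what the numbers stand for. Cnr1 was higher in libraries 10 to 17 (44.8 ± 4.24 FPKM, n = 6) than in libraries 1 to 6 (36.8 ± 2.61 FPKM, n = 5), with a log2 difference of 0.26 in a limma fit with training as a covariate (SE 0.0579, adjusted p = 0.0160). It was the single gene of the 9 past that threshold, which 9.51% of all genes passed. Between males and females the log2 difference was 0.21 (SE 0.0738, adjusted p = 0.133), and 2.13% of all genes passed an adjusted p under 0.05. Untrained 17, the female with a high number, had the highest Cnr1 value of all libraries. Apart from this mouse, sex and number range cannot be told apart. Markers of glial cells also moved with the number range: the summed FPKM of 9 oligodendrocyte markers was 308 to 536 in libraries 10 to 17 and 557 to 1150 in libraries 1 to 6, without overlap. That of 9 astrocyte markers was 539 to 626 in libraries 10 to 17 and 513 to 547 in libraries 1 to 6. Their part in the range difference of Cnr1 was not tested.

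Within each number range Cnr1 had the lower mean in Trained mice. In libraries 1 to 6 it measured 34.3, 38.8 and 33.7 FPKM in Trained mice and 39.2 and 38.1 FPKM in Untrained mice. In libraries 10 to 17 it measured 39.6, 39.1 and 47.3 FPKM in Trained mice and 47.4, 46.7 and 48.5 FPKM in Untrained mice. The groups overlapped in both ranges through 1 library each, Trained 2 in the low range and Trained 14 in the high range. With the number range as a covariate the log2 difference was -0.16 (limma adjusted p = 0.413), and with sex as a covariate it was -0.20 (adjusted p = 0.350). An interaction of training with sex was not shown (log2 interaction 0.06, SE 0.154; limma adjusted p = 0.977), nor one with the number range (-0.06, SE 0.121, adjusted p = 0.998; chosen after the data had been seen).

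Cnrip1 encodes a protein that binds the tail of CB1 (chr11, 17051586 to 17079371). It measured 44.5, 47.6 and 50.7 FPKM (lowest, median and highest) in Trained mice, against 46.9, 47.0, 55.1, 40.6 and 44.8 FPKM in Untrained 5, 6, 10, 16 and 17. The Untrained group held both the highest library (Untrained 10) and the lowest (Untrained 16), and the Trained libraries lay between them. The log2 difference was 0.02 (SE 0.0685, 95% interval -0.13 to 0.16; limma adjusted p = 0.960). Between the number ranges its log2 difference was -0.00431 (SE 0.0689; limma adjusted p = 0.977).

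Of the 2 diacylglycerol lipases, Daglb (chr5, 143464584 to 143505942), which is known as the main such lipase of microglia, was the one with separate groups. Daglb measured 15.7, 16.2 and 18.5 FPKM (lowest, median and highest) in Trained mice, against 15.6, 15.1, 14.7, 13.7 and 13.1 FPKM in Untrained 5, 6, 10, 16 and 17. Every Trained library was above every Untrained one, with the closest pair (Trained 14 and Untrained 5) nearly equal. The means were 16.6 ± 1.01 FPKM in Trained (SD, n = 6) and 14.5 ± 1.01 FPKM in Untrained mice (SD, n = 5), a ratio of 1.15 in the fit (95% interval 1.05 to 1.26). The log2 difference of 0.20 (SE 0.0613) had a limma p of 0.00568 and an adjusted p of 0.537. The two-sided exact permutation test gave p = 0.0022, the smallest that 6 against 5 libraries allow, and an adjusted p of 0.431 over all genes. The estimated depth was 1791 to 4189 fragments per library.

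Within the number ranges the Daglb difference had unlike sizes. In libraries 1 to 6 Daglb measured 16.3, 16.2 and 16.2 FPKM in Trained mice and 15.6 and 15.1 FPKM in Untrained mice. In libraries 10 to 17 it measured 18.5, 16.9 and 15.7 FPKM in Trained mice and 14.7, 13.7 and 13.1 FPKM in Untrained mice. The log2 differences were 0.08 in the low range and 0.30 in the high range, and their shared direction follows from the separation over all libraries. The difference between these values, tested after the data had been seen, was 0.22 (SE 0.111; limma interaction, adjusted p = 0.998). Without Untrained 16 and 17 together the log2 difference of Daglb was 0.13 (limma adjusted p = 0.827) and its unadjusted p was above 0.05. Summed FPKM of 9 microglial markers was 174 to 211 in Trained and 177 to 215 in Untrained libraries, with overlap. Of these markers, 7 had higher and 2 lower means in Trained mice. The part of microglia in the Daglb difference was not tested.

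Daglb shares 2309 bases of exon (24.1% of its exon length) with Rac1, a small GTPase gene on the opposite strand. The library kit keeps the strand, but whether the counting used it is not given in the sources consulted. Rac1 averaged 116 ± 7.76 FPKM in Trained mice, against 115 ± 12.3 FPKM in Untrained mice (log2 difference 0.01, SE 0.0709; limma adjusted p = 0.976). It was lowest in Untrained 16 (102 FPKM) and highest in Untrained 10 (134 FPKM), where Daglb measured 13.7 and 14.7 FPKM. The part of Rac1 reads in the Daglb values was not tested. Smaller overlaps with genes on the opposite strand were annotated for Cnrip1 (199 bases with Plek, 4.97% of its exon length) and Mgll (167 bases with Gm26588, 3.29%).

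Dagla encodes the lipase that supplies most synaptic 2-AG (chr19, 10245265 to 10304877). It measured 29.8, 32.1 and 35.5 FPKM (lowest, median and highest) in Trained mice, against 33.9, 33.1, 34.0, 32.3 and 33.4 FPKM in Untrained 5, 6, 10, 16 and 17. The Untrained libraries were tightly grouped, and the Trained ones lay on both sides of them. The log2 difference was -0.05 (SE 0.0546, 95% interval -0.17 to 0.07; limma adjusted p = 0.804), and with 1 library left out it ran from -0.0752 (without Trained 2) to -0.0250 (without Trained 14). In libraries 10 to 17 Dagla measured 30.9, 30.0 and 29.8 FPKM in Trained mice and 34.0, 32.3 and 33.4 FPKM in Untrained mice. These values did not overlap, which 3 against 3 libraries reach far more easily than 6 against 5. The share of all genes that separated in this range was not counted. In libraries 1 to 6 the Trained libraries had 34.4, 35.5 and 33.3 FPKM and the Untrained ones 33.9 and 33.1 FPKM. The test of this change of direction, chosen after the data had been seen, gave a log2 interaction of -0.18 (SE 0.0817; limma adjusted p = 0.998). With sex in place of the number range the interaction was -0.17 (SE 0.0845, adjusted p = 0.959).

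The balance of the lipases can be given as the share of Daglb. Daglb made up 34.0 ± 2.40% of the summed FPKM of both lipases in Trained mice (31.3 to 37.5%) and 30.2 ± 1.34% in Untrained mice (28.2 to 31.6%). In libraries 10 to 17 the share was 37.5, 36.0 and 34.5% in Trained mice and 30.1, 29.8 and 28.2% in Untrained mice. In libraries 1 to 6 it was 32.1, 31.3 and 32.6% in Trained mice and 31.6 and 31.4% in Untrained mice, so that the groups overlapped there. These shares are a description with no test.

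Napepld encodes the phospholipase D that releases anandamide and other N-acylethanolamines (chr5, 21662901 to 21701396). It measured 5.89, 6.47 and 7.22 FPKM (lowest, median and highest) in Trained mice, against 7.40, 7.69, 7.59, 7.35 and 7.27 FPKM in Untrained 5, 6, 10, 16 and 17. All Trained libraries were below all Untrained ones, and Trained 14 was again the closest to the other group. The means were 6.54 ± 0.480 FPKM in Trained (SD, n = 6) and 7.46 ± 0.175 FPKM in Untrained mice (SD, n = 5), with a ratio of 0.877 in the fit. The log2 difference was -0.19 (SE 0.0641, 95% interval -0.33 to -0.05), with a limma p of 0.0108 and an adjusted p of 0.537. The two-sided exact permutation p was 0.0065, with an adjusted p of 0.509. Napepld was the lowest of the 9 genes and rested on an estimated 410 to 796 fragments per library.

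The Napepld difference had its larger estimate among libraries 1 to 6. There it measured 6.34, 6.27 and 5.89 FPKM in Trained mice and 7.40 and 7.69 FPKM in Untrained mice, a log2 difference of -0.29. In libraries 10 to 17 it measured 6.94, 6.59 and 7.22 FPKM in Trained mice and 7.59, 7.35 and 7.27 FPKM in Untrained mice, a log2 difference of -0.10. Here too the shared direction follows from the separation over all libraries. The interaction with the number range, tested after the data had been seen, was 0.19 (SE 0.114; limma adjusted p = 0.998), so a difference between the ranges was not shown.

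**Figure D2:**
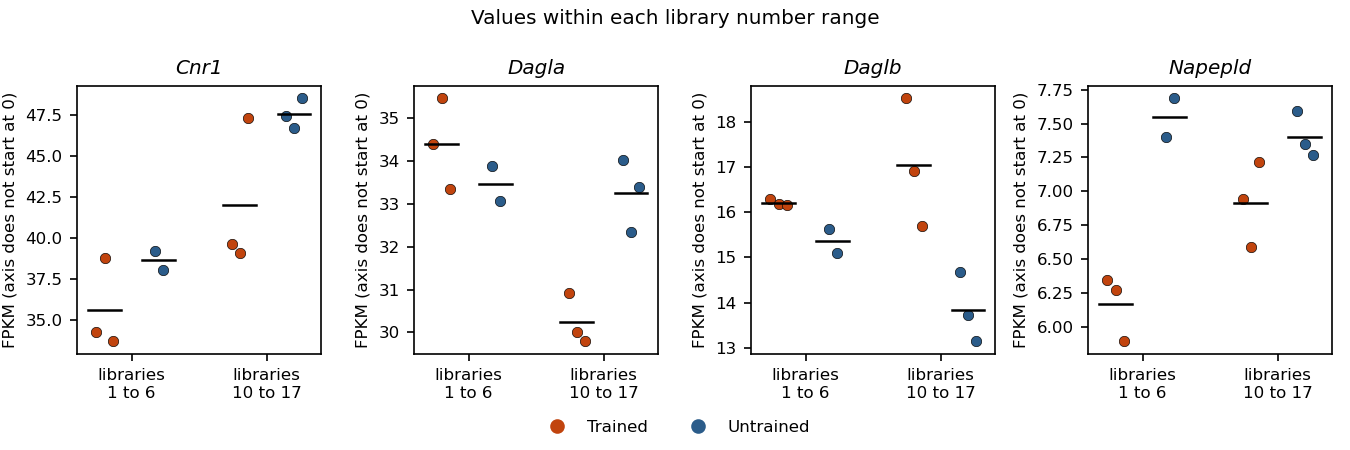
FPKM of Cnr1, Dagla, Daglb and Napepld within libraries 1 to 6 (left pair) and 10 to 17 (right pair); points are mice, orange Trained and blue Untrained, the bars are means, and the vertical axes do not start at 0. The log2 difference was 0.08 in the low and 0.30 in the high range for Daglb and -0.29 in the low and -0.10 in the high range for Napepld, Cnr1 was higher in the high range in both groups, and the Dagla means had opposite orders in the 2 ranges.

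The groups overlapped in all 3 genes whose enzymes break down 2-AG. Mgll, the monoacylglycerol lipase of presynaptic terminals and astrocytes (chr6, 88724412 to 88828360), averaged 68.6 ± 2.48 FPKM in Trained (SD, n = 6) and 68.9 ± 4.04 FPKM in Untrained mice (SD, n = 5), with a log2 difference of -0.01 (95% interval -0.11 to 0.10). Its sign changed with sex as a covariate. The sign also changed when Trained 13, Trained 14 or Untrained 5, the highest library (75.5 FPKM), was left out. Abhd6, which acts on the postsynaptic side (chr14, 8002902 to 8056763), averaged 24.6 ± 1.71 FPKM in Trained mice and 26.2 ± 1.94 FPKM in Untrained mice, with a log2 difference of -0.09 (95% interval -0.22 to 0.05). Abhd12, a membrane lipase that also cleaves lysophosphatidylserine (chr2, 150832493 to 150904741), averaged 156 ± 11.8 FPKM in Trained mice and 150.5 ± 10.3 FPKM in Untrained mice, with a log2 difference of 0.05 (95% interval -0.09 to 0.19). The limma adjusted p of these 3 genes was 0.982, 0.700 and 0.818 in the order given. Per library Mgll was at 64.9 to 71.7 FPKM in Trained mice and 64.7 to 75.5 FPKM in Untrained mice, Abhd6 at 21.8 to 26.7 FPKM in Trained mice and 23.5 to 28.6 FPKM in Untrained mice, and Abhd12 at 135 to 165 FPKM in Trained mice and 140 to 164 FPKM in Untrained mice.

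Abhd12 measured 135 to 161 FPKM in libraries 10 to 17 and 158 to 165 FPKM in libraries 1 to 6. The log2 difference of the high range minus the low range was -0.16 (SE 0.0478; limma adjusted p = 0.0591), which did not pass the test. The oligodendrocyte marker sum, lower in libraries 10 to 17 (308 to 536) than in libraries 1 to 6 (557 to 1150), moved with these ranges, and its part in the Abhd12 values was not tested. Of the summed FPKM of Mgll, Abhd6 and Abhd12, Mgll took 27.5 ± 0.722% in Trained and 28.1 ± 1.01% in Untrained mice, Abhd6 took 9.90 ± 0.797% in Trained and 10.7 ± 1.02% in Untrained mice, and Abhd12 took 62.6 ± 1.35% in Trained and 61.2 ± 1.12% in Untrained mice. RNA shares do not give the shares of enzyme activity, and no test was made on them.

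Faah, the hydrolase of anandamide (chr4, 115967145 to 116017926), measured 26.1, 27.2 and 30.5 FPKM (lowest, median and highest) in Trained mice, against 27.9, 25.8, 23.0, 28.4 and 27.0 FPKM in Untrained 5, 6, 10, 16 and 17. Trained 12 was the highest library and Untrained 10 the lowest, and the other libraries of the groups overlapped. The means were 27.6 ± 1.56 FPKM in Trained mice and 26.4 ± 2.13 FPKM in Untrained mice (SD, n = 6 and 5), and the log2 difference was 0.07 (SE 0.0617, 95% interval -0.07 to 0.20; limma adjusted p = 0.753). Without Untrained 10 it was 0.0189. Napepld expressed as a percentage of Faah was 23.7 ± 1.66% in Trained and 28.4 ± 2.94% in Untrained mice. The ranges, 22.6 to 27.0% in Trained and 25.9 to 33.0% in Untrained mice, overlapped through Trained 14. With that library apart, the Trained values were 22.6 to 23.4%.

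**Figure D3:**
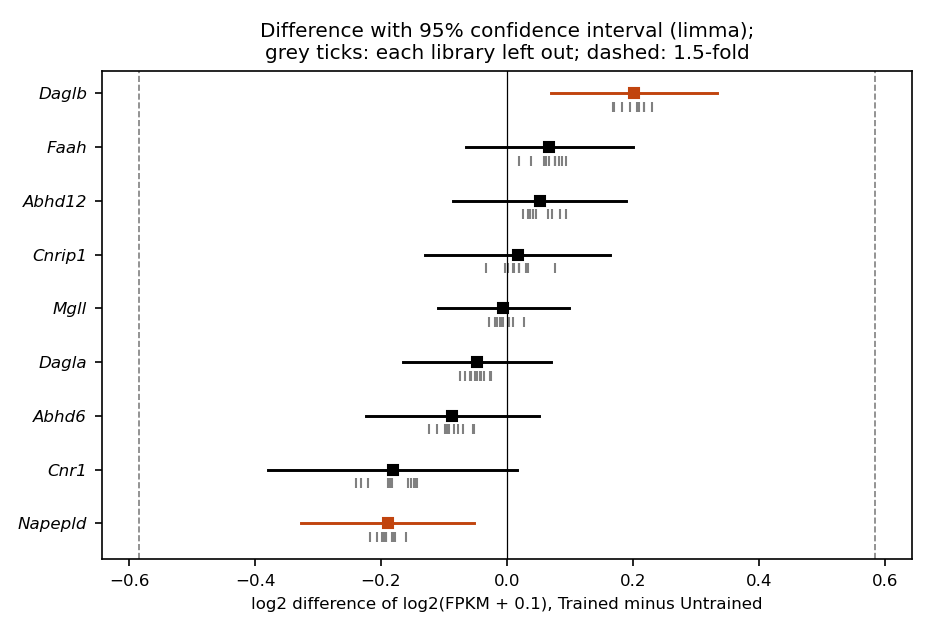
Log2 difference of each gene, Trained minus Untrained, on the log2(FPKM + 0.1) scale (horizontal axis), with squares for the estimate, lines for the 95% confidence interval from limma, grey ticks for the estimate with each library left out in turn and dashed lines at 1.5-fold. The intervals of Daglb (0.07 to 0.33) and Napepld (-0.33 to -0.05), drawn in orange, did not reach 0 before adjustment, and no interval reached 1.5-fold.

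The order of the levels on the FPKM scale was the same at its top and its bottom in every library. The gene lengths behind the FPKM are not given in the sources consulted, and missing junction reads can differ between genes. The order and the shares between genes depend on both. Abhd12 was the most abundant at a mean of 153.5 FPKM (135 to 165 over 11 libraries), followed by Mgll at 68.7 FPKM (64.7 to 75.5), with no overlap between these neighbours or between Mgll and Cnrip1. Cnrip1 (47.1 ± 3.73 FPKM, SD over 11 libraries) and Cnr1 (41.2 ± 5.38 FPKM) overlapped, and Cnrip1 was the higher of them in 8 of 11 libraries. Cnr1 was above Dagla (32.8 ± 1.84 FPKM) in 10 of 11 libraries and Dagla above Faah (27.1 ± 1.85 FPKM) in 11 of 11, although the ranges overlapped. Faah was above Abhd6 (25.3 ± 1.90 FPKM) in 10 of 11 libraries. Daglb (15.6 ± 1.49 FPKM) and Napepld (6.96 ± 0.598 FPKM) were below all the others with no overlap. Among all genes tested, Abhd12 was at percentile 98.2 of mean level and Napepld at percentile 46.9.

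Other genes of the pathway were taken from lists by role, with 44 genes, of which 37 were tested and 7 (Cnr2, Gpr18, Gpr119, Trpv1, Ces1d, Alox12 and Alox15) are not analysed here. None passed an adjusted p under 0.05. At an unadjusted p under 0.05, 2 were higher and 1 lower in Trained mice, and the median log2 difference was -0.02, with 13 means higher and 24 lower. Over all 14936 genes tested 4.13% were higher and 4.2% lower at that p, the median was -0.00288, and 7335 means were higher and 7601 lower. The 3 genes were Fabp3, from the list of lipid carriers, and Pla2g4e and Gdpd1, which act on the route to N-acylethanolamines.

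Fabp3 measured 18.4, 19.0 and 20.9 FPKM (lowest, median and highest) in Trained mice, against 12.8 (Untrained 10) and 16.2 to 17.2 FPKM in the other Untrained mice. The groups did not overlap, and Untrained 10 lay below the other Untrained libraries. The log2 difference was 0.26 (SE 0.0757; limma adjusted p = 0.537), and without Untrained 10 it was 0.18. The other carriers, Fabp5 and Fabp7, had log2 differences of 0.08 (SE 0.121) and -0.15 (SE 0.154) and did not pass the test.

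Among the 6 other genes of N-acylethanolamine synthesis, 5 means were higher and 1 was lower in Trained mice (median log2 difference 0.09). Over all genes tested, 7335 means were higher and 7601 lower, and the count for this list was not tested. Pla2g4e, the acyltransferase that makes the substrate of Napepld, averaged 2.57 ± 0.338 FPKM in Trained (SD, n = 6) and 2.07 ± 0.348 FPKM in Untrained mice (SD, n = 5), with overlapping groups and a log2 difference of 0.30 (SE 0.126; limma adjusted p = 0.577). Gdpd1, a phosphodiesterase that releases N-acylethanolamines from lysophospholipids, measured 16.5, 17.7 and 18.8 FPKM (lowest, median and highest) in Trained mice, against 19.2, 19.2, 20.9, 18.7 and 20.3 FPKM in Untrained 5, 6, 10, 16 and 17. Only Trained 2 reached the Untrained range, and the log2 difference was -0.16 (SE 0.0518; limma adjusted p = 0.537). Gde1, the most abundant gene of the list, averaged 129 FPKM in Trained mice and 121 FPKM in Untrained mice (adjusted p = 0.729).

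**Figure D4:**
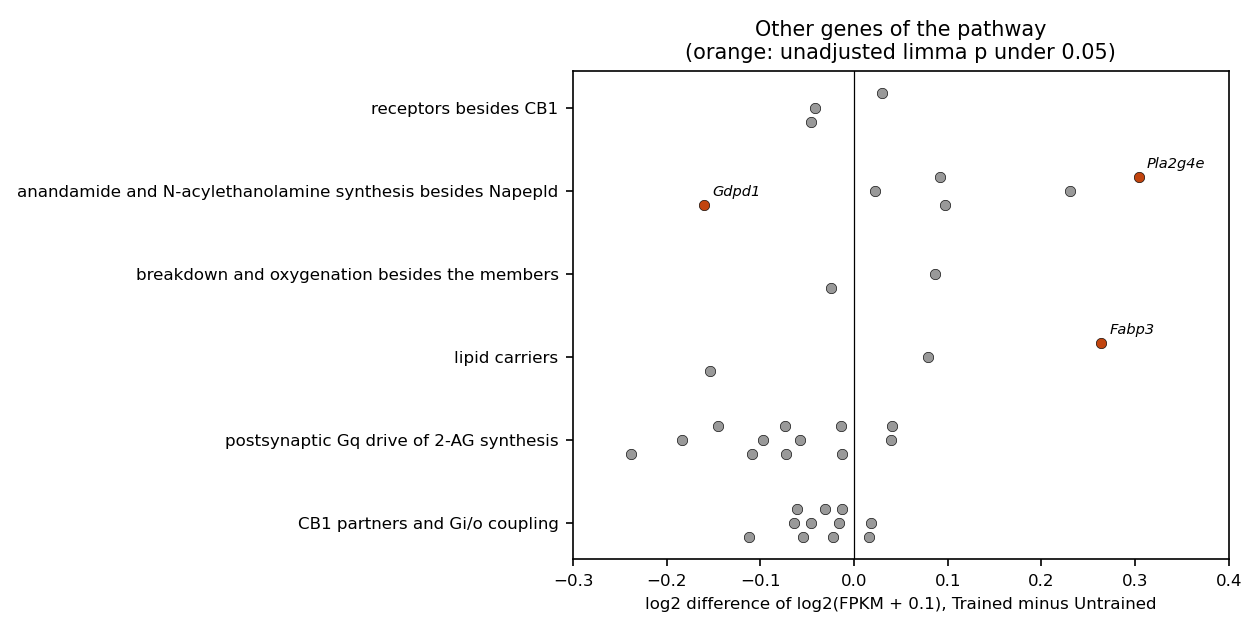
Log2 difference of the 37 other pathway genes, Trained minus Untrained, on the log2(FPKM + 0.1) scale (horizontal axis), grouped by role; each point is 1 gene, and orange marks an unadjusted limma p under 0.05. Fabp3 (0.26) and Pla2g4e (0.30) were on the higher side and Gdpd1 (-0.16) on the lower side. In the list on postsynaptic Gq drive, which also holds Homer1 and Camk2a, 10 of the 12 genes had negative values.

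The list on 2-AG synthesis after glutamate or acetylcholine held receptors, G proteins and phospholipases of that route, and also Homer1 and Camk2a. It had 2 means higher and 10 lower in Trained mice (12 genes, median log2 difference -0.07), and none had an unadjusted limma p under 0.05. Over all genes tested, 7335 means were higher and 7601 lower. The list mixes roles, so its count of directions does not measure the drive of 2-AG synthesis. Grm5, the group I glutamate receptor gene that couples to this route, had a log2 difference of -0.18 (SE 0.156). Homer1, a scaffold gene of this receptor, had one of -0.24 (SE 0.113; limma adjusted p = 0.597), a value that pools all its transcripts. Camk2a, a kinase that phosphorylates Dagla and the most abundant gene of this list, averaged 790 FPKM in Trained mice and 832 FPKM in Untrained mice. The 11 partners of CB1 and genes of Gi/o coupling had 2 means higher and 9 lower (median -0.03), none with an unadjusted p under 0.05, and Gprasp1, which sorts the receptor for degradation, averaged 114 FPKM in Trained mice and 119 FPKM in Untrained mice.

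Of the receptors other than CB1, 3 of 7 were tested, with 1 mean higher and 2 lower. Pparg, a nuclear receptor that lipid amides can activate, was the most abundant of these at 1.80 FPKM in Trained mice and 1.75 FPKM in Untrained mice. Of the other genes of breakdown and oxygenation, 2 of 5 were tested. Naaa, an acid amidase of N-acylethanolamines, averaged 10.1 FPKM in Trained mice and 9.51 FPKM in Untrained mice, and Ptgs2, which oxygenates both endocannabinoids, had a log2 difference of -0.02 (SE 0.0974).

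The genes whose pattern was most like that of Cnr1 were Kpna1 and Ipo7, which encode nuclear import receptors, Copb1, a coatomer subunit, Smarca1, a chromatin remodeller, and Nckap1, a subunit of the WAVE actin regulator. The measure was Pearson's r of the log2 values over the 11 libraries after the mean of each number range had been subtracted, among 12807 genes averaging at least 1 FPKM. It was 0.988 for Kpna1, 0.981 for Copb1, 0.964 for Smarca1, 0.961 for Ipo7 and 0.959 for Nckap1, with Spearman's rho of 0.918, 0.836, 0.709, 0.836 and 0.909. Of the other endocannabinoid genes, Napepld (r = 0.65, rank 1359 of 12807) and Dagla (0.51, rank 2330) were the most alike. Daglb (-0.77) and Abhd12 (-0.67) ran opposite to Cnr1. The difference between Trained and Untrained mice was left in the values, so r partly restates it. The genes most like Cnr1 were all lower in Trained mice, with log2 differences from -0.29 (Ipo7) to -0.14 (Copb1). The libraries share their depth and tissue composition across genes, and these values describe the 11 libraries with no test.

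The tissue expressed the markers of cortical neurons. Slc17a7, of glutamatergic neurons, was at 694 to 761 FPKM in Trained mice and 708 to 761 FPKM in Untrained mice, and Gad1, of GABAergic neurons, was at 57.5 to 69.9 FPKM in Trained mice and 58.1 to 71.2 FPKM in Untrained mice. Cck, the peptide gene that names the CCK interneurons, was at 393 to 509 FPKM in Trained mice and 416 to 510 FPKM in Untrained mice. The summed FPKM of 10 markers of CCK, VIP and related interneurons was 552 to 674 in Trained and 571 to 671 in Untrained mice. Most of that sum was Cck itself. Cck was far above Gad1 and need not come from interneurons alone, so neither value isolates the CCK interneurons. The sum of 9 oligodendrocyte markers was 308 to 1150 in Trained and 370 to 660 in Untrained mice, and the sum of 9 astrocyte markers was 513 to 603 in Trained and 528 to 626 in Untrained mice. The 7 markers of the meninges all had lower means in Trained mice (summed FPKM 15.6 to 32.5 in Trained and 24.4 to 50.5 in Untrained mice). So did the 7 markers of mural cells (47.0 to 60.7 in Trained and 47.5 to 74.1 in Untrained mice). Of 7 choroid plexus markers 3 were measured (0.686 to 4.61 in Trained and 0.822 to 168 in Untrained mice), with 164 FPKM of Ttr in Untrained 10, the library with the lowest Faah and the highest Cnrip1. None of these lists separated the groups, and their part in the differences of Daglb, Napepld and Cnr1 was not tested. The estimated depth was 17.7 to 27.1 M fragments in the Trained libraries and 14.2 to 26.2 M in the Untrained ones.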

How the data were processed

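Libraries came from a stranded mRNA kit, with 1 library per mouse from 6 Trained and 5 Untrained mice. The authors used Trimmomatic (0.38) for trimming, Bowtie2 (2.3.5.1) for alignment to mm10 and featureCounts (Subread 1.6.3) for counting, and deposited FPKM for 14974 genes. The annotation, whether counting used strand, and the steps from counts to FPKM are not given in the sources consulted. Bowtie2 does not split reads across introns, so reads that span exon junctions may be missing. The authors also deposited their own edgeR (3.30.3) comparison (log2 fold changes, p-values and false discovery rates), which was not used. No per-library column was left out (0), and 23 names that a spreadsheet had turned into dates stayed unnamed.

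FPKM were analysed as log2(FPKM + 0.1), which understates changes of low genes, for the 14936 genes averaging at least 0.1 FPKM. Groups were compared with limma 3.58.1 (R 4.3.3, trended empirical Bayes, no covariate) with Benjamini-Hochberg adjustment over all these genes. Beside it stands a two-sided exact permutation test of the group labels (462 arrangements). Sex and number range were compared with training as a covariate, and with interaction terms. A test on the log scale was used because FPKM are not counts. Fragments per library were estimated with GENCODE M21 exon lengths (96.0% of names matched), since low FPKM values fall in steps of 1 fragment. Of the low values, 43.3 to 52.5% came within 0.1 of a whole number, so depths are approximate and no count model was fitted. The fit was tested on simulated data.

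The members and lists were chosen with earlier results of these data known. All 9 members are named, as are each pathway gene with an unadjusted p under 0.05, the most abundant gene of each list and the 5 genes most like Cnr1. Fabp5, Fabp7, Grm5, Homer1 and Ptgs2 were named for their roles after their values were seen. Alternatives were other pseudocounts (0.01 and 1), filters, scalings, covariates, array weights and left-out libraries.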

Additional observations from a re-analysis of the deposited data

Results flagged for a closer look

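In 46 groups of values checked (each gene or share within Trained or Untrained libraries), 4 held a library set apart from the rest of its group by Dixon's ratio at the 95% level, a level that chance passes in about 1 of 20 groups. Fabp3 was at 20.9 FPKM in Trained 13, above the next Trained library at 19.2 FPKM, and at 12.8 FPKM in Untrained 10, below the next Untrained library at 16.2 FPKM. Mgll took 29.0% of the 2-AG hydrolase FPKM in Trained 14, and at most 27.6% in the other Trained libraries. Napepld was 27.0% of Faah in Trained 14, against at most 23.4% in the other Trained libraries.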

How the results depend on the processing

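The differences of the 9 members, of the 8 pathway genes named by rule and of Fabp5, Fabp7, Grm5, Homer1, Ptgs2 and Rac1 were recomputed under 23 alternatives over both sexes and in 4 subsets. No member reached an adjusted p under 0.05 in the 23, and Cnr1 and Abhd6 kept their direction in these and in the subsets. In Daglb and Napepld the separation of the groups fixes the direction whichever libraries are left out. The log2 difference of Daglb ran from 0.13 to 0.23 (unadjusted limma p under 0.05 in 22 of 23), of Napepld from -0.22 to -0.16 (23 of 23) and of Cnr1 from -0.24 to -0.10 (6 of 23). Without Untrained 16 and 17 the sign turned in Cnrip1 (-0.0693) and Abhd12 (-0.00745), with sex as a covariate in Mgll (0.00241), in males in Cnrip1 (-0.00150) and Mgll (0.0244), in females in Dagla (0.0402) and Faah (-0.00153), in libraries 1 to 6 in Dagla (0.0391) and in libraries 10 to 17 in Mgll (0.00515). Pparg also turned with sex as a covariate (-0.000104), with array weights (-0.0452), without Untrained 16 and 17 (-0.0281), in females (-0.12) and in libraries 1 to 6 (-0.28), and Camk2a without Untrained 10 and 16 (0.00593). With each library left out, Cnrip1 ran from -0.0327 to 0.0770, Mgll from -0.0282 to 0.0276 and Pparg from -0.0610 to 0.0865. Of the genes named for their role or their overlap, Fabp5 turned without Untrained 16 and 17 (-0.0732), Fabp7 in females (0.14) and in libraries 1 to 6 (0.0553), and Ptgs2 without Untrained 16 and 17 (0.0572) and without Untrained 10 and 16 (0.0228). Rac1 turned with quantile normalization (-0.0170), without Untrained 16 and 17 (-0.0767), in males (-0.0603) and in libraries 10 to 17 (-0.0225). With each library left out Ptgs2 ran from -0.0822 to 0.0361 and Rac1 from -0.0317 to 0.0676. Among the members, single libraries also moved, by over 1.5 times, Faah (0.0387 without Trained 12, 0.0189 without Untrained 10), Dagla (-0.0752 without Trained 2, -0.0271 without Trained 13, -0.0250 without Trained 14), Abhd6 (-0.0519 without Trained 3, -0.0535 without Untrained 10) and Abhd12 (from 0.0260 without Untrained 16 to 0.0932 without Trained 14). None of these differences passed the test. The causes were not tested.

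At an unadjusted p under 0.05, sex as a covariate gave 947 genes higher and 960 lower in Trained mice, and 363 were lower without Untrained 10 and 16. With each library left out the counts ran from 419 to 1117 higher (most without Trained 14) and from 404 (without Untrained 17) to 1236 lower (without Trained 14). Of the members, 0 were higher without Untrained 16 and 17, and 2 were lower (Cnr1 besides Napepld) with sex or number range as a covariate or with array weights, and 1 to 2 with each library left out. Of the pathway lists, 1 gene was higher without Untrained 16 and 17 and 2 were lower with sex as a covariate, and with each library left out 1 to 2 were higher and 1 to 3 lower. No paired analysis was made because the labels give no pairing of Trained with Untrained mice. Among the 9 members Napepld had the fewest fragments, with as few as an estimated 410 in a library. Fragments were not estimated for lower genes such as Pparg and Pla2g4e.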
